A study of Mus musculus with 15 samples.

Results

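Fibroblasts driven towards muscle by synthetic MyoD mRNA were given either of 2 kinase inhibitors, and the comparison made here is between these inhibitors: CP690550 (CP), which inhibits the Janus kinases (JAK), and SP600125 (SP), which inhibits the c-Jun N-terminal kinases (JNK). It rests on 6 of the 15 libraries of the series, namely the 3 whose titles name MyoD, F/R/C and CP and the 3 whose titles name MyoD, F/R/C and SP. All 6 came from primary mouse embryonic fibroblasts (MEFs) of the genotype Tg:Pax7-nGFP/C57BL6;DBA2, which carry a nuclear GFP reporter under Pax7 control, and were collected at day 10 after the cells were transfected 4 times with MyoD mRNA in iMPC medium with B18R, a decoy receptor that binds type I interferon. F/R/C stands for forskolin, which raises cAMP, RepSox, which inhibits the TGF-beta receptor, and CHIR99210, a GSK3 inhibitor, so that SP and CP were each added to the same cocktail. Each MEF line was grown from the torso of a single embryo, per the methods, without purification of one cell type and without a record of sex. Libraries numbered 1 to 3 in each group are called lines 1 to 3 below. The 3 libraries with MyoD and F/R/C but no further inhibitor are used as the shared reference. The doses of SP and CP are not given in the sources used here, so that the values below compare these cultures and not the drugs at matched strength.

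JAKs sit on the inner side of cytokine and interferon receptors and phosphorylate STAT transcription factors. Upon type I interferon, a complex that holds STAT2 and IRF9 binds the interferon-stimulated response element (ISRE) and switches on antiviral genes, whereas cytokines of the IL-6 family act largely via STAT3. JNK phosphorylates c-Jun, a subunit of the AP-1 transcription factor, which drives genes of the stress and wound response. Transfected RNA is itself a known trigger of interferon production in fibroblasts.

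The 6 libraries held between 29393872 and 41401758 estimated counts, with overlapping ranges in both groups. Collagen genes of fibroblasts, such as Col1a1 (7454, 9264 and 7833 CPM, read counts scaled to library size, with CP in lines 1 to 3), and muscle genes, such as Myog (239.8, 248.6 and 201.2 CPM with CP), were both detected in every library. Line 3 with SP stood apart from the other 8 F/R/C libraries on the first principal component, which took 19.31% of the variance. Line 2 with CP stood apart on the third component, and held 537.8 CPM of the heat shock gene Hspa1b against 38.3 and 38.0 CPM in the other 2 CP libraries. Counts of genes called are therefore also given without these libraries.

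Of 18460 genes tested, 37 were higher with CP than with SP (0.2%) and 144 were lower (0.78%), at an adjusted p of at most 0.05 and a log2 fold change (log2FC, CP minus SP) over 0.5 in size. Genes were tested in edgeR (quasi-likelihood) with line as a block, and all adjusted p-values here are Benjamini-Hochberg values over all genes tested. The median log2FC over all genes was 0.01, and 2081 genes had an unadjusted p under 0.05. With so few genes called, 0 calls in a short gene list is near the share over all genes. It is not read below as a result about the members. Among the called genes, 28 of the 37 higher and 133 of the 144 lower had no overlap between the 3 CP and the 3 SP libraries, against 11.6% of all genes tested. The sign of the fit was found in each line for 36 of the 37 and 144 of the 144, against 34.4% of all genes tested. Both measures come from the libraries that chose the genes and are descriptions. A log2FC over 2 in size was reached by 5 higher and 39 lower genes, and 36 of the 144 lower genes belonged to a list of interferon response genes, of which 0 were called higher.

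**Figure D1:**
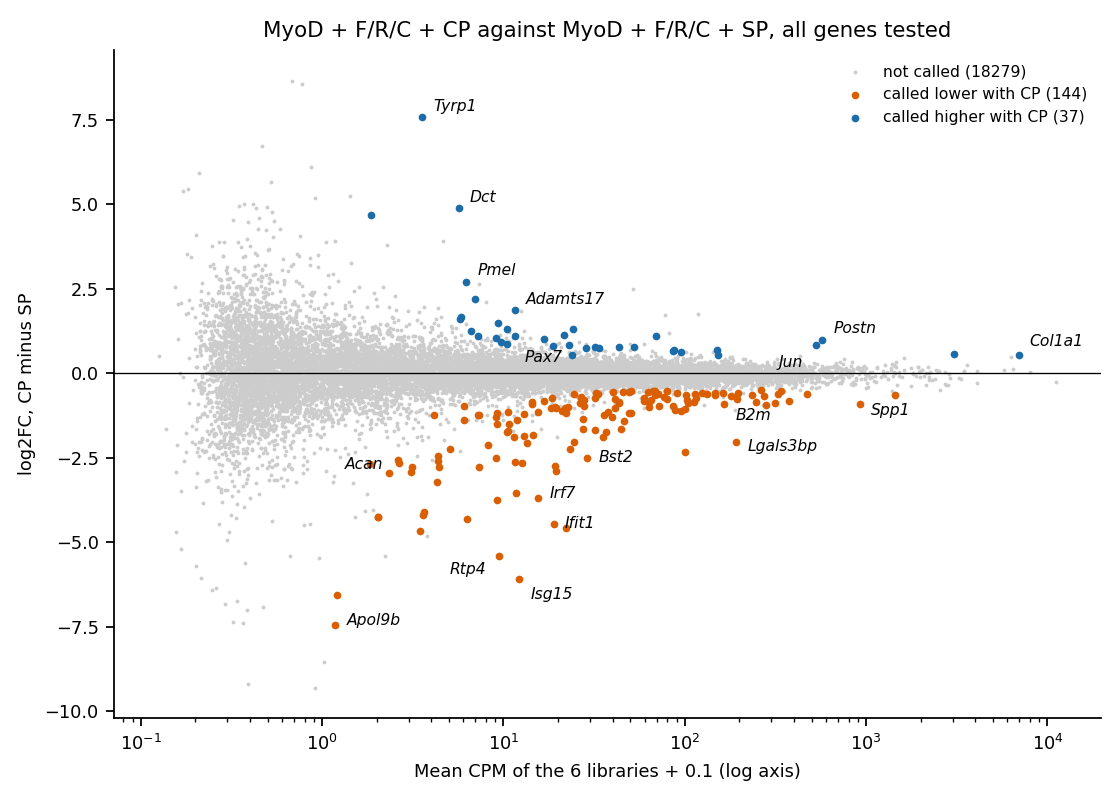
Each point is one of the 18460 genes tested, placed by its mean CPM over the 6 libraries plus 0.1 (log axis) and by its log2FC (CP minus SP). The 144 genes called lower with CP (orange) have a median log2FC of -1.07, and the 37 called higher (blue) have one of 0.99. A size over 2 is reached by 39 of the lower and 5 of the higher genes. Pax7 and Jun are labelled although neither was called.

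These counts depended on single libraries and on the pairing. Without line 3 with SP, 17 genes were called higher and 108 lower. Without line 2 with CP, the calls were 19 higher and 84 lower, and without line 3 with CP they were 9 and 73. Without line 1 with CP they came to 18 and 70, without line 1 with SP to 22 and 75, and without line 2 with SP to 16 and 85. Without the block for line, 6 genes were higher and 65 lower. The call held in each fit that left out 1 library for 53 lower genes, 23 of them in the interferon list, and for 8 higher genes.

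Over all genes tested, 0.78% were called lower and 0.2% higher. Of the gene lists examined, that of interferon response genes held the most calls. Of its 62 genes, 59 passed the filter on low counts, 36 of these 59 were called lower with CP and 0 higher, and all 59 had a negative log2FC, with a median of -1.97 against 0.01 over all genes tested. Summed over the list, expression was 727.4 to 872.8 CPM with CP and 1835 to 2396 CPM with SP, with 1222 to 1439 CPM under F/R/C alone. Whether fewer cells expressed these genes or each cell held less of their RNA cannot be told apart in bulk RNA. Leaving out line 1 with SP lowered the number called to 24. It was 23 without the whole of line 1 and 15 without the whole of line 2. In the fits of all 15 libraries it was 19 with the block for line and 22 without it.

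Isg15 encodes a ubiquitin-like protein that is joined to other proteins during antiviral defence. It stood at 0.5205, 0.0557 and 0.607 CPM with CP and 30.3, 22.9 and 18.1 CPM with SP in lines 1 to 3. Every SP library was thus far above every CP library, and the gene was lower with CP (log2FC -6.07 ± 0.52 (SE), adjusted p = 0.00034). Ifit1, whose product binds viral RNA that lacks a host cap, showed 2.01, 1.25 and 1.49 CPM with CP and 58.6, 29.3 and 20.2 CPM with SP. The groups did not overlap, line 1 with SP being the highest (log2FC -4.46 ± 0.33 (SE), adjusted p = 0.00011). For Oasl2, a member of the oligoadenylate synthetase family, the levels were 1.88, 1.75 and 1.55 CPM with CP and 62.3, 39.6 and 25.3 CPM with SP. These too were separated in each line (log2FC -4.58 ± 0.34 (SE), adjusted p = 0.00012). Rtp4, an interferon-inducible receptor transporter, was counted at 0.595, 0.139 and 0.607 CPM with CP and 26.4, 14.2 and 13.9 CPM with SP. Its SP libraries all lay above 13 CPM and its CP libraries under 1 CPM (log2FC -5.41 ± 0.37 (SE), adjusted p = 0.00011).

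Other interferon genes had smaller differences or smaller errors. Usp18, the protease that removes ISG15 and damps receptor signalling, was at 2.06, 1.56 and 1.96 CPM with CP and 25.4, 20.02 and 18.96 CPM with SP. The 3 SP libraries lay close together and apart from the CP libraries (log2FC -3.54 ± 0.21 (SE), adjusted p = 3.7e-05). Bst2, or tetherin, which holds budding virus at the cell surface, was at 7.58, 9.44 and 8.97 CPM with CP and 54.2, 49.1 and 43.97 CPM with SP, without overlap (log2FC -2.50 ± 0.13 (SE), adjusted p = 1.8e-05). Lgals3bp, a secreted glycoprotein that binds galectins, reached 76.6, 79.2 and 68.4 CPM with CP and 352, 280.5 and 293 CPM with SP. No CP library reached 80 CPM and no SP library was under 280 CPM (log2FC -2.04 ± 0.10 (SE), adjusted p = 1.1e-05). Gvin1, a large interferon-inducible GTPase outside the list, was at 0.372, 0.501 and 1.11 CPM with CP and 13.6, 9.903 and 11.5 CPM with SP and also fell in each line (log2FC -4.31 ± 0.46 (SE), adjusted p = 0.0015).

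Among called genes the lowest fitted values belonged to those with almost no counts under CP. Apol9b had 1 count in all over the CP libraries and 231 over the SP libraries, a ratio of 222.6 (95% counting interval 39.55 to 8828), and Oas1b had 2 against 242, a ratio of 116.6 (31.93 to 968.1). These intervals cover counting error only. Both genes have close paralogs, so that the split of reads between copies is uncertain. The call on Apol9b was lost without SP line 1 (adjusted p = 0.058), and that on Oas1b without CP line 1, CP line 2, SP line 1 or SP line 2 (adjusted p = 0.073, 0.054, 0.1 and 0.089, in that order).

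The factors that carry the interferon signal were lower as well. Stat2 was at 14.5, 18.01 and 19.03 CPM with CP and 57.3, 60.7 and 51.1 CPM with SP, without overlap (log2FC -1.73 ± 0.16 (SE), adjusted p = 0.00043). Irf9, its DNA-binding partner, was at 12.2, 12.03 and 15.6 CPM with CP and 46.7, 38.9 and 38.8 CPM with SP (log2FC -1.66 ± 0.15 (SE), adjusted p = 0.00043). Its lowest SP library was well above its highest CP library. Irf7, which amplifies type I interferon production, was at 1.81, 2.98 and 1.89 CPM with CP and 35.4, 31.4 and 19.3 CPM with SP and separated the groups in all lines (log2FC -3.68 ± 0.27 (SE), adjusted p = 0.00011). Each of these genes, like Isg15, Ifit1, Oasl2, Rtp4, Usp18, Bst2 and Lgals3bp, was among the 20 genes called lower in all 24 alternative fits, of which 13 were in the interferon list.

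**Figure D2:**
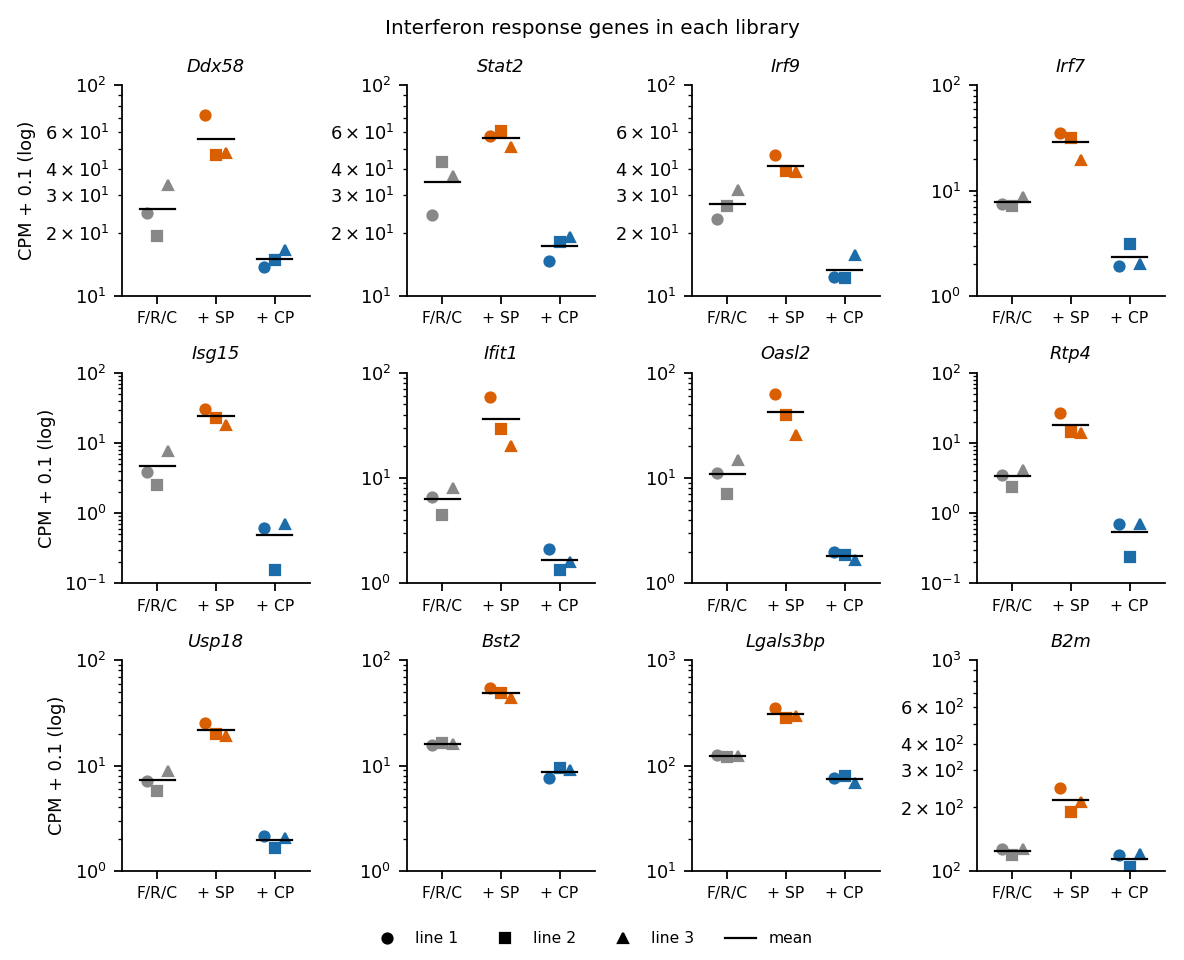
CPM plus 0.1 (log axis) of 12 genes in each of the 9 libraries with F/R/C, by line (symbols), with the mean as a bar. In each of the 12 panels the 3 SP libraries (orange) lie above the 3 CP libraries (blue), and Ddx58 runs from 13.6 to 16.4 CPM with CP and from 46.8 to 72.3 CPM with SP.

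Upstream parts of the pathway gave no calls, which for so few genes is near the share over all genes tested (0.2% higher and 0.78% lower). Transcripts of the kinase Jak1 were at 220.3, 218 and 231 CPM with CP and 299, 258 and 276 CPM with SP (log2FC -0.31, 95% CI -0.49 to -0.13, adjusted p = 0.13), and those of Jak2 at 50.98, 55.4 and 58.7 CPM with CP and 85.5, 74.3 and 69.2 CPM with SP (log2FC -0.48, 95% CI -0.76 to -0.19, adjusted p = 0.16). Neither passed the threshold, although their groups did not overlap. Jak3 (log2FC -0.27, 95% CI -0.53 to -0.01, adjusted p = 0.42) and Tyk2 (log2FC 0.07, 95% CI -0.19 to 0.33, adjusted p = 0.9) overlapped between groups. Of the 4 kinases, 0 were called by edgeR, limma-voom or DESeq2. An unadjusted p under 0.05 was found for 3 of the 4, a larger share than the 2081 of 18460 genes tested. Both chains of the type I interferon receptor, singled out after their values were seen, were not called either. Ifnar1 was at 92, 94.3 and 91.3 CPM with CP and 99.5, 95.8 and 100.2 CPM with SP (log2FC -0.09, 95% CI -0.28 to 0.10, adjusted p = 0.78), and Ifnar2 at 43.3, 47.5 and 51.4 CPM with CP and 48.4, 56.1 and 51.2 CPM with SP (log2FC -0.13, 95% CI -0.47 to 0.22, adjusted p = 0.84). Ifnb1, the gene for interferon beta and likewise singled out, had 0 counts in each of the 9 libraries.

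Promoter sequences of called genes were searched for known motifs. In RefSeq promoters of the GRCm38.p6 build, running from 250 bases before to 50 bases after each gene's start, the core of the ISRE (GAAA, any 2 bases, then GAAA, or TTTC, any 2 bases, then TTTC for the other strand, overlapping matches allowed) was found in 38 of 139 windows of called lower genes (27.34%), in 0 of 37 windows of called higher genes, and in 3.44% of all 32851 windows or 3.08% of those of genes tested. Most windows of lower genes thus lacked it. Windows were listed for 110 of the 144 lower and 27 of the 37 higher genes. Among windows of interferon list genes called lower the share was 15 of 33 (45.45%), and among windows of lower genes outside that list it was 21.7%. Another 3 motifs were counted on both strands. The AP-1 motif TGANTCA was in 11.51% of windows of lower genes, 5.41% of those of higher genes and 5.79% of those of genes tested. The STAT motif TTCNNNGAA was in 10.07%, 8.11% and 6.96%, in that order. The core of the element bound by the aryl hydrocarbon receptor, GCGTG or CACGC, was in 35.25%, 35.14% and 46.37%. Over all windows the shares were 7.81%, 8.3% and 32.39% for these 3 motifs, and none of these shares was tested. A match is a stretch of letters and not a measured binding site. For Isg15 (chr4:156200830-156200909, minus strand), Ifit1 (chr19:34640779-34640858, plus strand), Bst2 (chr8:71537542-71537621, minus strand) and Stat2 (chr10:128270251-128270330, plus strand), genes called lower in all fits, 80 bases are shown 5′ to 3′ with the ISRE core in capitals:
Isg15: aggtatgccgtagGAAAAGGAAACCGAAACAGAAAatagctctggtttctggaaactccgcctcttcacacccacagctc
Ifit1: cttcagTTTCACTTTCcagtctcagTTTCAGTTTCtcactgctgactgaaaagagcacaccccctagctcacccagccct
Bst2: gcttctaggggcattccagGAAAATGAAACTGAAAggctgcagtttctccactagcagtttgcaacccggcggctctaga
Stat2: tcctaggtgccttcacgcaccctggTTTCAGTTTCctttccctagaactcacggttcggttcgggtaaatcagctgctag
The core occurred 3 times with shared letters in Isg15, 2 times in Ifit1 and Bst2 and once in Stat2, and its nearest match lay 66 bases before the start of Isg15 and 222 before that of Stat2. The windows of Oasl2, Irf7, Irf9 and Lgals3bp, which also fell, did not hold these letters.

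Genes of antigen presentation followed the same direction. Of 15 MHC class I presentation genes tested, 9 were called lower with CP, against 0.78% of all genes tested, and 0 higher. All 15 had a negative log2FC (median -0.84). The summed level of the list was 380.5 to 425.1 CPM with CP against 676.0 to 703.4 CPM with SP. B2m, the light chain shared by class I molecules, was at 118, 105 and 119.7 CPM with CP and 247, 189.9 and 212 CPM with SP. The 2 groups were well apart, and the gene fell in each line (log2FC -0.92 ± 0.09 (SE), adjusted p = 0.00062). The heavy chain gene H2-D1 was at 29.9, 28.9 and 33.9 CPM with CP and 62.2, 71.2 and 77.2 CPM with SP (log2FC -1.18 ± 0.09 (SE), adjusted p = 0.00021) and H2-T22, a nonclassical relative, at 26.7, 31.8 and 33.6 CPM with CP and 46.6, 51.6 and 57.8 CPM with SP (log2FC -0.76 ± 0.09 (SE), adjusted p = 0.0033). Reads of H2 genes can be split between close copies, which makes the share of each uncertain. Without line 1 with SP, 3 members were called, and also without the block for line. Without the whole of line 2, 2 were called.

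Sensors of foreign RNA were in part lower, with 6 of 16 genes called lower (against 0.78% of all genes tested), 0 higher and a median log2FC of -0.80. Of those called, Ddx58, Ifih1, Eif2ak2 and Trim25 were also counted in the interferon list. Without the whole of line 2, 1 member was called, and the calls on Trim25, Zc3hav1 and Adar were lost. Ddx58, which encodes the sensor RIG-I, was at 13.6, 14.8 and 16.4 CPM with CP and 72.3, 46.8 and 47.7 CPM with SP and did not overlap between groups (log2FC -1.89 ± 0.20 (SE), adjusted p = 0.0013). Lower levels were also found for Trim25, the ubiquitin ligase that activates RIG-I (log2FC -0.85 ± 0.09 (SE), adjusted p = 0.0013), for Zc3hav1, which binds CpG-rich RNA (log2FC -1.01 ± 0.12 (SE), adjusted p = 0.0031), and for Adar, which edits double-stranded RNA (log2FC -0.87 ± 0.11 (SE), adjusted p = 0.0033). The SP libraries of Adar held 58.2, 53.7 and 55.3 CPM and the CP libraries 32.8, 26.6 and 31.9 CPM, so that each group was narrow.

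STAT3 and its targets were compared next, since JAK inhibition can reach them too. Stat3 itself was at 210.1, 267 and 256 CPM with CP and 251, 284 and 298 CPM with SP, with overlapping groups (log2FC -0.19, 95% CI -0.37 to -0.01, adjusted p = 0.42). Of 15 STAT3 target genes, 6 were called lower with CP, against 0.78% of all genes tested, and 0 higher (median -0.58). The number called was 2 without line 1 or without line 3 with CP. It was 0 without the block for line or without the whole of line 1 or line 2. Il4ra, a receptor chain for IL-4 and IL-13, was at 76.4, 113 and 128 CPM with CP and 124, 166 and 186 CPM with SP. Its groups overlapped, yet CP was below SP in each line (log2FC -0.60 ± 0.08 (SE), adjusted p = 0.0053), and the call was kept on leaving out any one library. It was lost in 8 of 24 alternative fits, among them those without the block and those without any whole line (adjusted p up to 1.0). Serpina3n, an acute phase protease inhibitor, was at 10.2, 15.3 and 22.03 CPM with CP and 31.2, 50.1 and 34.9 CPM with SP (log2FC -1.35 ± 0.20 (SE), adjusted p = 0.0096), a call lost without CP line 2, SP line 1 or SP line 2 (adjusted p = 0.058, 0.052 and 0.057, in that order). Osmr, the oncostatin M receptor, was at 99.4, 139 and 148 CPM with CP and 182, 176 and 184 CPM with SP and did not pass the threshold (log2FC -0.51, 95% CI -0.76 to -0.26, adjusted p = 0.072).

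SOCS genes, the feedback inhibitors that STATs induce, gave no calls either. Of 8 tested, 0 were called by edgeR, DESeq2 or limma-voom, and 1 had an unadjusted p under 0.05 (median -0.03). Both counts are near the shares over all genes tested. Socs3 was at 71.4, 79.8 and 78.1 CPM with CP and 89.1, 141 and 90.2 CPM with SP (log2FC -0.45, 95% CI -0.70 to -0.19, adjusted p = 0.13). Socs1 (log2FC 0.16, 95% CI -0.25 to 0.57, adjusted p = 0.82) and Cish (log2FC -0.10, 95% CI -0.43 to 0.22, adjusted p = 0.87) overlapped between groups.

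On the JNK side of the comparison, transcripts of the cascade itself gave no calls. Of 21 kinases, scaffolds and phosphatases, 0 were called by edgeR, DESeq2 or limma-voom and 1 had an unadjusted p under 0.05, with a median of -0.05. Over all 18460 genes tested, 0.2% were called higher and 0.78% lower, and 2081 had an unadjusted p under 0.05. For a list of this size 0 calls is thus near the share over all genes. Mapk8 (JNK1) was at 41.3, 36 and 37.9 CPM with CP and 47.2, 36.9 and 37.05 CPM with SP (log2FC -0.07, 95% CI -0.31 to 0.17, adjusted p = 0.88) and Mapk9 (JNK2) at 51.6, 58.9 and 57.5 CPM with CP and 60.9, 56.5 and 69.01 CPM with SP (log2FC -0.14, 95% CI -0.38 to 0.10, adjusted p = 0.7). Of 18 AP-1 subunits, 0 were called by any of the 3 tools and 2 had an unadjusted p under 0.05 (median -0.004), again near the shares over all genes. Jun, the main substrate of JNK, was at 232, 379 and 243 CPM with CP and 221, 383 and 254 CPM with SP (log2FC -0.003, 95% CI -0.27 to 0.26, adjusted p = 1.0). Line 2 was the highest library of Jun in both groups. It was so too for Junb, at 126, 251 and 129 CPM with CP and 113, 278 and 139 CPM with SP (log2FC -0.03, 95% CI -0.27 to 0.21, adjusted p = 0.96), and for Fos, at 138, 299 and 196 CPM with CP and 125, 305 and 171 CPM with SP (log2FC 0.11, 95% CI -0.15 to 0.37, adjusted p = 0.81). Fosl1 did not overlap between groups, at 23.1, 24.97 and 19.1 CPM with CP and 33.7, 31.7 and 41.5 CPM with SP, but missed the threshold (log2FC -0.70, 95% CI -1.27 to -0.14, adjusted p = 0.31).

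Several genes commonly listed as AP-1 targets nevertheless differed, and all in the direction of less RNA with CP. Of 16 tested, 5 were called lower, against 0.78% of all genes tested, and 0 higher (median -0.51). The number called was 2 without line 1 or without line 3 with SP, and 1 without the block for line. Mmp13, a collagenase, was at 31.6, 18.99 and 23.4 CPM with CP and 99.3, 56.9 and 47.7 CPM with SP (log2FC -1.41 ± 0.15 (SE), adjusted p = 0.0014), and line 1 was the highest in both groups. Its call was lost without the block for line, in both fits of all 15 libraries and without the whole of line 2 (adjusted p up to 0.71). Spp1, or osteopontin, a matrix protein secreted in wounds, was at 554, 633 and 752 CPM with CP and 1113, 1091 and 1424 CPM with SP, with no overlap (log2FC -0.90 ± 0.08 (SE), adjusted p = 0.00058). The Spp1 call was lost only in the fit of all 15 libraries without the block (adjusted p = 0.31).

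Targets of the aryl hydrocarbon receptor, a sensor of planar aromatic compounds, formed a smaller group with the same direction. Of 7 tested, 2 were called lower with CP, against 0.78% of all genes tested, and 0 higher (median -0.77). The cytochrome P450 gene Cyp1b1 was at 141, 138 and 149.7 CPM with CP and 256, 252 and 222 CPM with SP, and no library of one group reached the other (log2FC -0.77 ± 0.09 (SE), adjusted p = 0.0026). Its call was lost in both fits of all 15 libraries and without the whole of line 2 (adjusted p up to 0.098). Ahrr, the repressor of the receptor, was at 5.08, 4.65 and 5.803 CPM with CP and 11.8, 14.03 and 12.3 CPM with SP (log2FC -1.29 ± 0.19 (SE), adjusted p = 0.0085), a call lost without SP line 2 (adjusted p = 0.055). The Ahrr call was also lost in both fits of all 15 libraries, with length-scaled counts and without the whole of line 1 or line 2 (adjusted p up to 0.74). Cyp1a1, the most commonly used readout of this receptor, was low throughout at 0.421, 0 and 0.675 CPM with CP and 3.85, 1.86 and 3.15 CPM with SP, and Tiparp was at 49.5, 46.3 and 40.9 CPM with CP and 64.95, 57.7 and 60.1 CPM with SP. Neither passed the threshold (adjusted p = 0.24 and adjusted p = 0.066), though both had higher levels in each SP library than in each CP library.

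A further question was how each inhibitor stood against F/R/C alone. These 2 comparisons share the same 3 reference libraries, so their values are given side by side without a test of likeness. Against F/R/C, 210 genes were higher (1.14%) and 214 lower (1.16%) with SP, and 239 were higher (1.29%) and 351 lower (1.9%) with CP. In the interferon list, 21 of 59 genes were called higher and 0 lower with SP, and 20 were called lower and 0 higher with CP. Lists without calls between the inhibitors could hold genes called against F/R/C. Of 18 AP-1 subunits, 1 was called higher and 2 lower with each inhibitor, and of 8 SOCS genes 0 higher and 2 lower with each. Of the 4 JAK kinases, 1 was called lower with SP and 2 with CP. Of 21 JNK cascade genes, 0 were called with either. The log2FC of Isg15 against F/R/C was 2.55 ± 0.41 with SP (adjusted p = 0.015) and -3.53 ± 0.50 with CP (adjusted p = 0.0039). For Bst2 it was 1.62 ± 0.13 with SP (adjusted p = 0.00065) and -0.88 ± 0.13 with CP (adjusted p = 0.0049), and for Stat2 0.74 ± 0.15 with SP (adjusted p = 0.032) and -0.99 ± 0.15 with CP (adjusted p = 0.006). The reference thus lay between the inhibitors for these genes, as in the plot of levels per library, where Bst2 stood at 15.6, 16.4 and 15.9 CPM with F/R/C alone.

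Elsewhere one inhibitor lay further from the reference than the other. Cyp1b1 had a log2FC against F/R/C of 0.68 ± 0.09 with SP (adjusted p = 0.0052) and -0.08 ± 0.09 with CP (adjusted p = 0.72). For Mmp13 the values were 1.19 ± 0.15 with SP (adjusted p = 0.0049) and -0.22 ± 0.15 with CP (adjusted p = 0.51), and for Inmt, a methyltransferase, -1.21 ± 0.15 with SP (adjusted p = 0.0051) and -0.07 ± 0.15 with CP (adjusted p = 0.87). In these genes the CP libraries stayed near F/R/C while the SP libraries moved from it. Spp1 had -0.32 ± 0.08 with SP (adjusted p = 0.074) and -1.22 ± 0.09 with CP (adjusted p = 0.00018), Il4ra -0.61 ± 0.08 with SP (adjusted p = 0.0052) and -1.21 ± 0.08 with CP (adjusted p = 0.00016) and Ahrr 0.26 ± 0.18 with SP (adjusted p = 0.51) and -1.03 ± 0.19 with CP (adjusted p = 0.014). Here the CP libraries were the further ones from F/R/C, and Il4ra passed the threshold with both inhibitors.

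**Figure D3:**
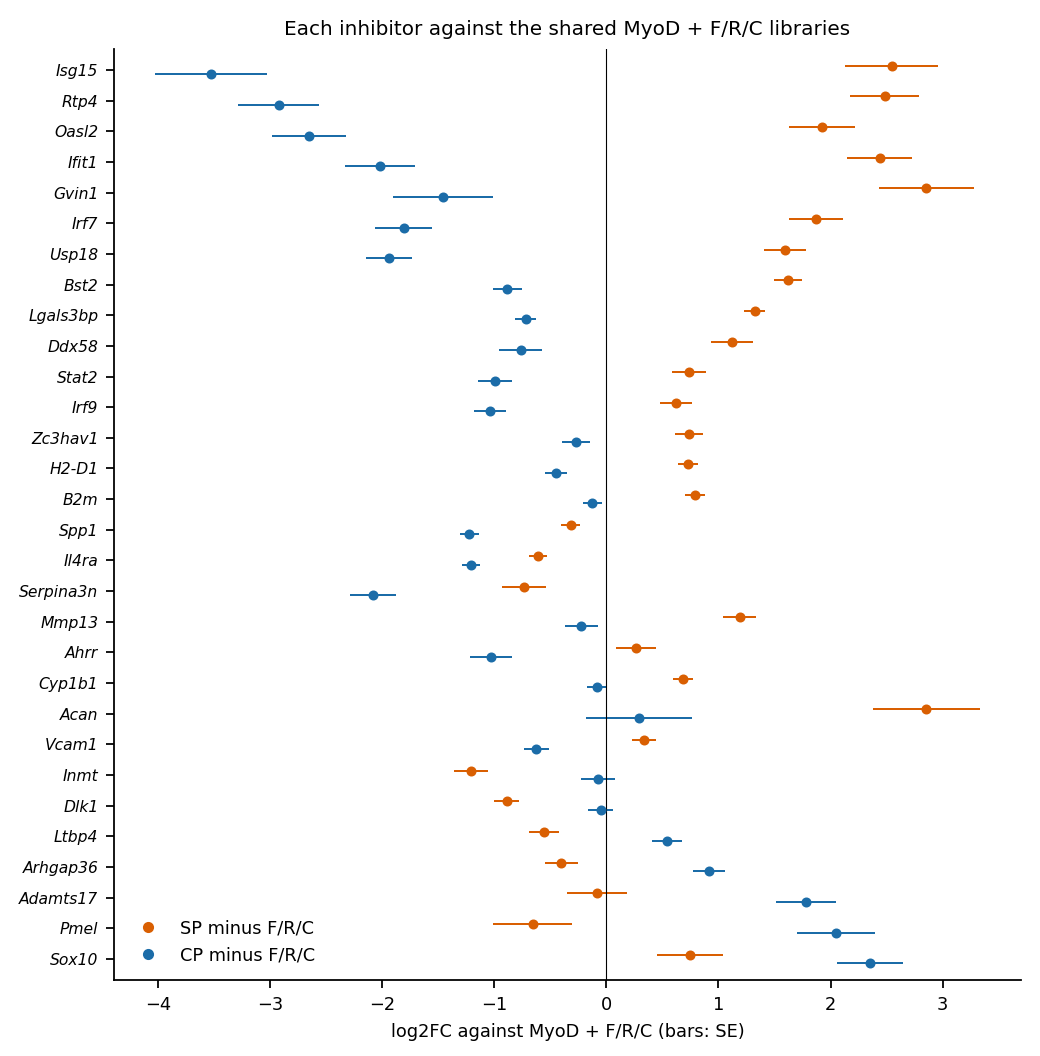
Log2FC of 30 genes against the shared MyoD and F/R/C libraries, for SP (orange) and CP (blue), with bars of 1 SE. Isg15 lies at 2.55 with SP and -3.53 with CP, while Inmt lies at -1.21 with SP and -0.07 with CP.

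The myogenic program was next examined, as both inhibitors were added to raise the yield of muscle progenitors. Pax7, the transcription factor of muscle stem cells, was at 13.3, 14.9 and 5.803 CPM with CP and 6.34, 21.4 and 5.31 CPM with SP, against 1.29, 0.711 and 0.305 CPM with F/R/C alone. Both inhibitor groups were above every F/R/C library, and they overlapped each other, with line 2 the highest in both (log2FC 0.13, 95% CI -0.67 to 0.93, adjusted p = 0.94). The interval is wide and includes differences in both directions. Against F/R/C its log2FC was 3.76 ± 0.43 with SP (adjusted p = 0.0049) and 3.89 ± 0.42 with CP (adjusted p = 0.0013). Heyl, a Notch target of muscle stem cells, was at 24.2, 23.9 and 10.1 CPM with CP and 12.6, 14.1 and 8.401 CPM with SP (log2FC 0.64, 95% CI -0.26 to 1.53, adjusted p = 0.63), and the receptor gene Fgfr4 at 39.98, 36.2 and 19.9 CPM with CP and 16.2, 46.8 and 16.6 CPM with SP (log2FC 0.38, 95% CI -0.25 to 0.999, adjusted p = 0.7). Msc, or musculin, was at 14.6, 14.98 and 3.104 CPM with CP and 3.902, 5.34 and 5.92 CPM with SP, with CP above SP in lines 1 and 2 and below it in line 3 (log2FC 0.98, 95% CI -0.28 to 2.24, adjusted p = 0.58).

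Among 25 genes of the satellite cell list, 1 was lower and 0 higher with CP, against 0.78% and 0.2% of all genes tested. An unadjusted p under 0.05 was found for 3 of them, against 2081 of the 18460 genes tested. The median log2FC of the list was 0.17, with 20 positive values. The one lower gene was Vcam1, an adhesion molecule that is also a target of NF-kB and was counted in that list too, at 46.9, 55.4 and 74.9 CPM with CP and 98.5, 110.2 and 131 CPM with SP (log2FC -0.96 ± 0.11 (SE), adjusted p = 0.0021). Its call was kept on leaving out any 1 library. It was lost without the block for line, in both fits of all 15 libraries, with length-scaled counts and without the whole of line 2 (adjusted p up to 0.59). Of the 7 myogenic regulatory factors, 0 were called by any of the 3 tools and 0 had an unadjusted p under 0.05. For so few genes both counts are near the shares over all genes tested. Myod1 was at 4040, 1136 and 992 CPM with CP and 1559, 1149 and 889 CPM with SP, and its reads may come from the gene or from transfected mRNA (log2FC 0.47, 95% CI -0.02 to 0.96, adjusted p = 0.47). Line 1 with CP held by far the most. Myog, which starts terminal differentiation, was at 239.8, 249 and 201 CPM with CP and 189.6, 276 and 179 CPM with SP (log2FC 0.10, 95% CI -0.53 to 0.74, adjusted p = 0.94).

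Most differentiated muscle genes had small positive values without being called. Of 50 tested, 1 was called higher, against 0.2% of all genes tested, and 0 lower. A positive log2FC was found for 45, with a median of 0.25 against 0.01 over all genes tested. An unadjusted p under 0.05 was found for 18 of the 50, against 2081 of the 18460 genes tested. DESeq2 called 3 and limma-voom 2 of the 50 higher, whereas edgeR without the block called 0. The called gene was Ckm, muscle creatine kinase, at 16.8, 25.1 and 28.8 CPM with CP and 8.08, 17.7 and 15.6 CPM with SP (log2FC 0.81 ± 0.14 (SE), adjusted p = 0.019). Its groups overlapped, and the call was lost without CP line 1, CP line 3, SP line 1, SP line 2 or SP line 3 (adjusted p = 0.12, 0.13, 0.1, 0.055 and 0.074, in that order). Myh1, a fast myosin heavy chain, was at 178, 225 and 241 CPM with CP and 183, 167 and 180.3 CPM with SP and was not called (log2FC 0.27, 95% CI -0.22 to 0.76, adjusted p = 0.73). Among 40 proliferation genes, 0 were called by any of the 3 tools and 5 had an unadjusted p under 0.05. Both counts are near the shares over all genes tested. The list had 33 positive values and a median of 0.20.

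**Figure D4:**
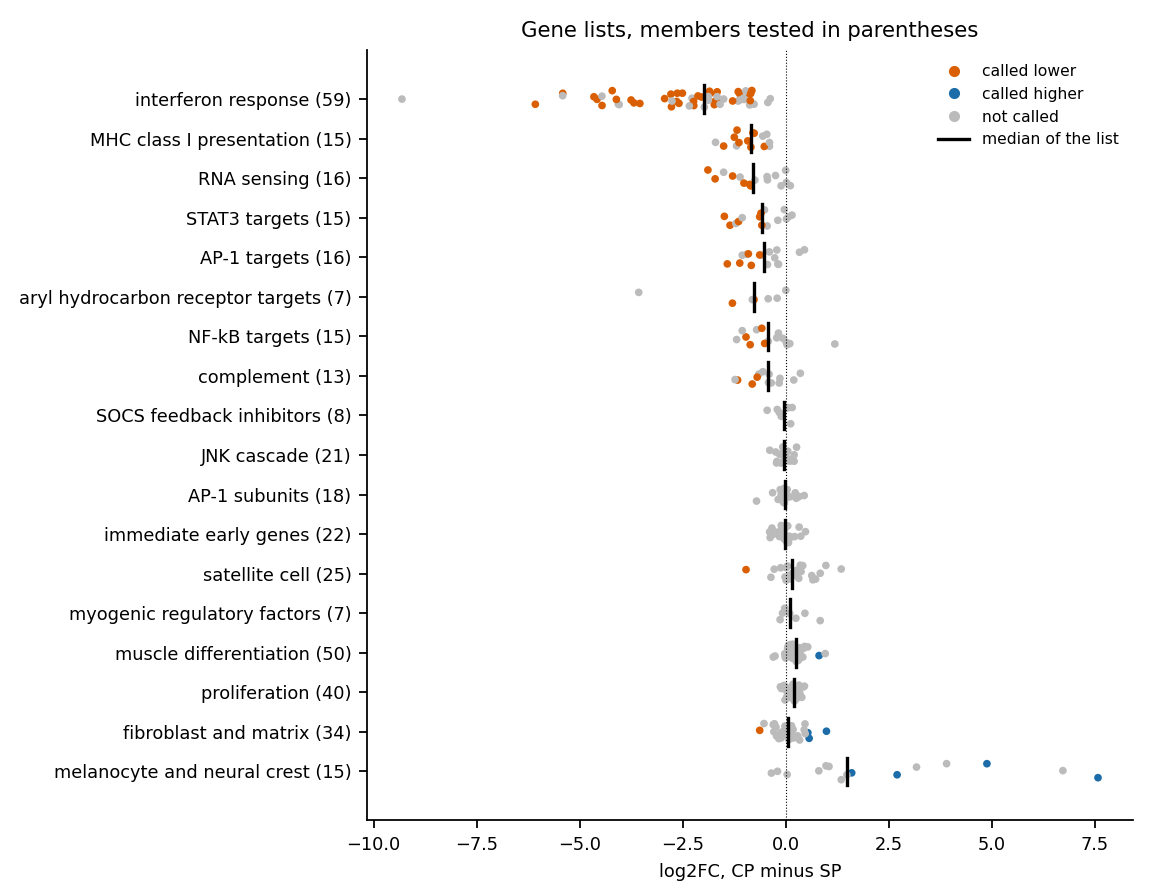
Log2FC (CP minus SP) of each member tested in 18 gene lists, with called members in orange (lower) or blue (higher) and the median of each list as a black bar. The medians run from -1.97 for interferon response genes to 1.49 for melanocyte and neural crest genes, and those of the JNK cascade and AP-1 subunits sit near 0.

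Genes higher with CP were fewer, and 4 of the 37 were markers of pigment cells and the neural crest. Of 15 melanocyte and neural crest genes tested, 4 were called higher, against 0.2% of all genes tested, and 0 lower, with a median log2FC of 1.49. Tyrp1, a melanosome enzyme, was at 2.92, 14.4 and 3.27 CPM with CP and 0.08302, 0 and 0 CPM with SP. Its counts summed to 734 with CP and 3 with SP, a ratio of 253.9 (95% counting interval 86.55 to 1234), and it was at 0 in all 3 F/R/C libraries. Dct, the dopachrome tautomerase of melanin synthesis, was at 9.22, 14.4 and 8.13 CPM with CP and 1.27, 0.266 and 0.129 CPM with SP (log2FC 4.89 ± 0.76 (SE), adjusted p = 0.012). Pmel, the fibril protein of melanosomes, was at 4.78, 19.4 and 8.33 CPM with CP and 1.16, 1.43 and 1.803 CPM with SP (log2FC 2.71 ± 0.36 (SE), adjusted p = 0.0059). In all 3 genes line 2 with CP was the highest library, the same library that stood apart in Hspa1b, and no CP library overlapped an SP library.

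Sox10, the neural crest transcription factor, was at 6.84, 6.35 and 12.5 CPM with CP and 3.57, 1.84 and 3.06 CPM with SP (log2FC 1.60 ± 0.29 (SE), adjusted p = 0.027), and was also the only one of 12 Schwann and glia genes called by edgeR (median 0.88), where DESeq2 called 3 and limma-voom 2. The call on Pmel was kept in each fit leaving out 1 library, but lost without the whole of line 2 and in both fits of all 15 libraries, in which 0 melanocyte genes were called. Without the block for line, 2 were called. That on Tyrp1 was lost without CP line 2 or CP line 3 (adjusted p = 0.15 and 0.056, in that order), that on Dct without CP line 2, CP line 3, SP line 2 or SP line 3 (adjusted p = 0.11, 0.086, 0.085 and 0.054, in that order), and that on Sox10 without CP line 2, CP line 3, SP line 1, SP line 2 or SP line 3 (adjusted p = 0.13, 0.2, 0.081, 0.12 and 0.12, in that order). With DESeq2, 6 melanocyte genes were called higher, and the adjusted p of Tyrp1 was 0.11 (range over its alternatives 6.1e-25 to 0.22). The summed level of the melanocyte list was 118.8 to 145.0 CPM with CP, 76.7 to 122.0 CPM with SP and 88.0 to 136.6 CPM with F/R/C, so that the groups overlapped in the sum although not in these genes. Mlana, too low to be tested, had 4, 3 and 3 counts with CP and 0 in each SP and F/R/C library. The other untested members were Oca2, with 5, 0 and 0 counts with CP, 2, 0 and 0 with SP and 9 in line 3 of F/R/C, and Gpr143, with 1, 0 and 7 counts with CP and 1 in line 1 with SP. Whether the number of pigment cells differed between cultures was not tested.

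Of the 8 higher genes whose call held on leaving out any 1 library, 1 was Pmel and 5 others are described here. Adamts17, a secreted metalloprotease, was at 21.6, 18.5 and 13.5 CPM with CP and 7.17, 5.58 and 2.51 CPM with SP (log2FC 1.86 ± 0.27 (SE), adjusted p = 0.008). Arhgap36, which inhibits protein kinase A, was at 33.6, 32.6 and 37.5 CPM with CP and 13.7, 13.1 and 14.7 CPM with SP and varied little within each group (log2FC 1.32 ± 0.14 (SE), adjusted p = 0.0015). Ltbp4, which binds latent TGF-beta in the matrix, was at 95.9, 112 and 72.3 CPM with CP and 31.99, 62.9 and 38.98 CPM with SP (log2FC 1.10 ± 0.14 (SE), adjusted p = 0.0033). In these genes all 3 CP libraries were above all 3 SP libraries. Inmt was at 25.1, 27.1 and 36.8 CPM with CP and 11.1, 15.6 and 13.6 CPM with SP (log2FC 1.14 ± 0.15 (SE), adjusted p = 0.0062), and Dlk1, a noncanonical Notch ligand of immature mesenchyme, at 559, 839.9 and 603 CPM with CP and 261, 558 and 338 CPM with SP (log2FC 0.84 ± 0.11 (SE), adjusted p = 0.0061). Over all 24 alternative fits, 0 of the 37 higher genes kept their call. The calls on Adamts17, Arhgap36, Ltbp4, Inmt and Dlk1 were lost in both fits of all 15 libraries. They were also lost without the whole of line 2, or of line 1 for Dlk1. Those on Ltbp4 and Dlk1 were lost without the block for line too. The remaining pair of the 8, Alx4 and Col13a1, was not named by the rule for genes described. It is given by name because its calls held on leaving out any 1 library.

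**Figure D5:**
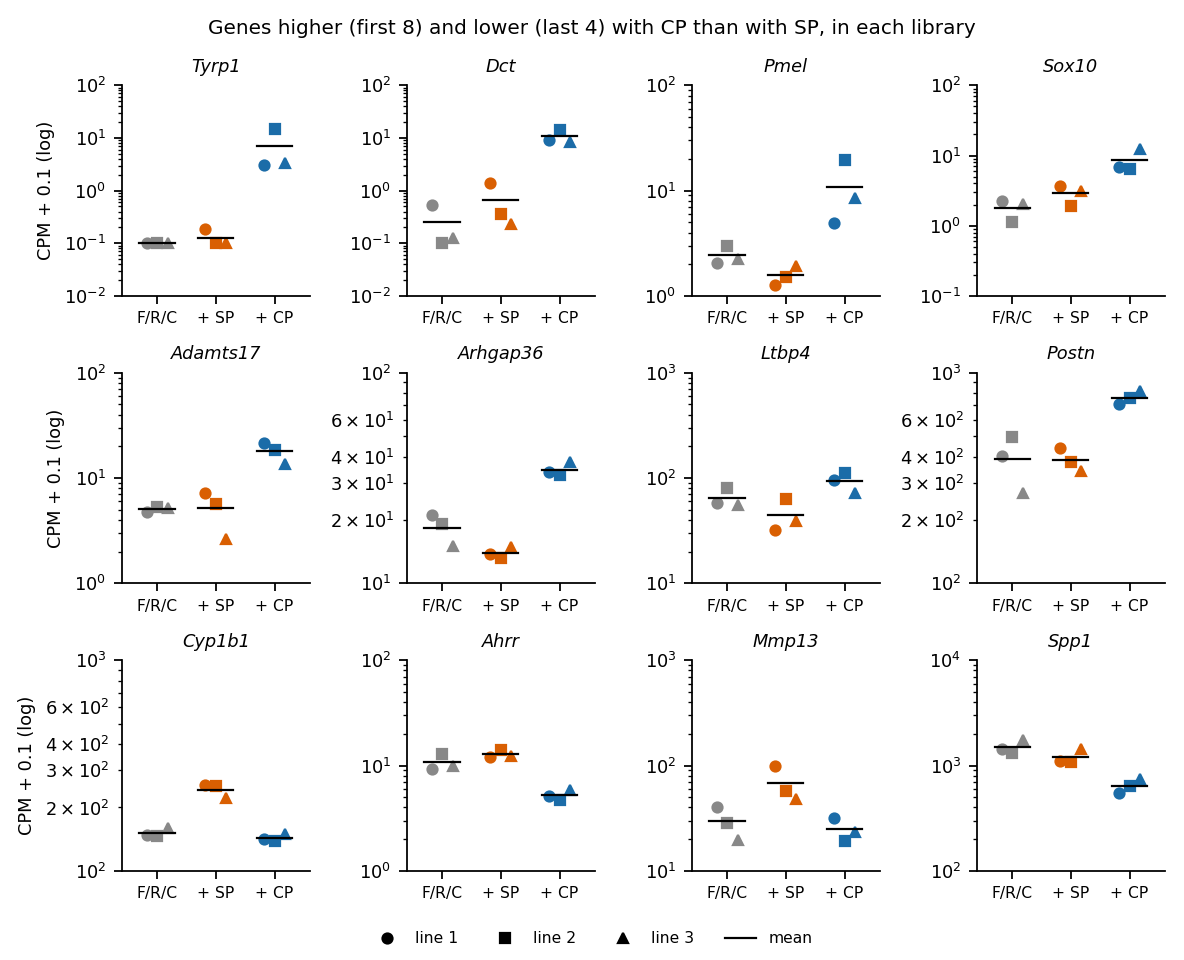
CPM plus 0.1 (log axis) of 12 further genes in each of the 9 libraries with F/R/C, by line (symbols), with the mean as a bar. The first 8 genes are higher and the last 4 lower with CP (blue) than with SP (orange), and Tyrp1 runs from 2.92 to 14.4 CPM with CP.

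Matrix genes of fibroblasts showed small differences at high expression. Of 34 tested, 3 were called higher and 1 lower (median 0.07), against 0.2% and 0.78% of all genes tested. Postn, or periostin, was at 709.5, 759 and 816 CPM with CP and 438, 379 and 343 CPM with SP (log2FC 0.99 ± 0.17 (SE), adjusted p = 0.018), Col1a2 at 3528, 3878 and 3517 CPM with CP and 2491, 2907 and 2042 CPM with SP (0.57 ± 0.10, adjusted p = 0.024) and Col1a1 at 7454, 9264 and 7833 CPM with CP and 4999, 6896 and 5122 CPM with SP (0.54 ± 0.11, adjusted p = 0.046). In each of these the lowest CP library was above the highest SP library. Timp1, an inhibitor of matrix proteases, was lower with CP (log2FC -0.63 ± 0.12 (SE), adjusted p = 0.034), with its SP libraries at 187.9, 137.8 and 210.7 CPM and its CP libraries at 113.9, 111.8 and 116.7 CPM. The calls rested on single libraries, and 0 were made without the block for line. That on Postn was lost without CP line 3, SP line 2 or SP line 3 (adjusted p = 0.088, 0.1 and 0.076, in that order), that on Col1a2 without CP line 1, CP line 3, SP line 1, SP line 2 or SP line 3 (adjusted p = 0.11, 0.15, 0.052, 0.11 and 0.12, in that order), that on Col1a1 without CP line 1, CP line 2, CP line 3, SP line 1, SP line 2 or SP line 3 (adjusted p = 0.15, 0.087, 0.3, 0.18, 0.18 and 0.11, in that order), and that on Timp1 without CP line 1, CP line 3, SP line 1 or SP line 3 (adjusted p = 0.19, 0.22, 0.12 and 0.16, in that order).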

How the data were processed

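Per the labels, poly-A RNA of each culture was made into stranded TruSeq libraries. The authors trimmed reads with fastp 0.20.0 and quantified transcripts with kallisto 0.46.1 on GRCm38.p6, and the deposited files hold estimated counts and TPM per transcript, with 1 library per file. For this comparison estimated counts were summed per gene (121104 of 121843 transcripts matched GENCODE genes, giving 35675), rounded, filtered with a minimum count of 10 and tested with edgeR 4.0.16 in R 4.3.3 over the 9 F/R/C libraries, with TMM scaling and line as a block. The deposited TPM values, which the authors scaled to transcript length, entered 1 alternative. limma 3.58.1 and DESeq2 1.42.0 were alternatives. Tables and plots were made in Python 3.11.15 (matplotlib 3.10.9, scipy 1.17.1, numpy 2.4.6, pandas 2.3.3). With line as a block, constant differences between lines are taken out. P-values are set against how much the differences between conditions varied among the 3 lines, over the 9 F/R/C libraries.

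Replicate numbers were taken as MEF lines, which the methods describe as 3 lines under each treatment. Deviations from the group mean correlated by 0.10 to 0.24 between CP and SP libraries of one number, and each of 9 libraries lay nearest to those sharing its number. No replicates were duplicates. CPM are counts scaled to the TMM-adjusted library total. Genes described were a panel of 40 genes, the 15 called genes with the highest and 15 with the lowest log2FC at a mean of 1 CPM or more without overlap, up to 4 called members of each of 48 gene lists in each direction (up to 2 where none was called), and members that moved against their list. Some genes that this rule selects are not reported here. The comparison, the gene lists and the tests were chosen with earlier results of these data known.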

Additional observations from a re-analysis of the deposited data

How the results depend on the processing

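All 37 higher and 144 lower genes kept their direction in every alternative fit in which they were tested, whereas the number called moved. With 9 libraries and no replicate block, 6 genes were called higher and 65 lower, and the same counts came from the 6 compared libraries without the block, against 60 higher with it. With all 15 libraries, 0 were higher and 36 lower with the replicate block (1018 genes at an unadjusted p under 0.05), and 0 and 38 without it (775 genes). DESeq2 called 136 and 256, limma-voom 58 higher, counts without a filter 225 and 336, and length-scaled counts 15 and 77. An unadjusted p of at most 0.01 with a log2FC over 1 gave 66 higher. Leaving out replicates, singly or as a whole line, gave 2 to 54 higher and 31 to 179 lower genes. Without line 2 the counts were 2 and 31, without line 1 they were 17 and 53, and without line 3 they were 12 and 94. The cause of these shifts was not tested. Genes that were not called could change sign. Jun had a log2FC of 0.015 with library totals only and 0.019 with length-scaled counts, and Junb 0.066 with the latter. On leaving out replicates, the log2FC ran from -0.011 to 0.362 for Socs1, from -0.078 to 0.097 for Jun, from -0.137 to 0.076 for Junb, from -0.352 to 0.664 for Pax7, from -0.096 to 0.838 for Fgfr4, from -0.131 to 0.472 for Myog and from -0.259 to 0.035 for Ifnar2. Log2FC of genes with few counts in one group are limited by depth.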

Other observations

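Several other gene groups were measured in the same fit, in which 0.78% of all genes tested were called lower and 0.2% higher. Among 15 NF-kB targets, 4 were called lower with CP and 0 higher (median -0.42), and 1 without line 1 with CP, line 2 with CP or line 3 with SP. Of 13 complement genes, C3, Cd55 and Masp1 were called lower (log2FC -1.16 ± 0.19, -0.69 ± 0.10 and -0.81 ± 0.16) and 0 higher, with 0 calls left without line 3 with CP. Without the block for line, 0 genes of either list were called. Fabp4, a lipid carrier of fat cells, was at 37.1, 46.4 and 43.3 CPM with CP and 91.4, 75.1 and 86.3 CPM with SP, the only one of 15 adipocyte genes called by edgeR (log2FC -1.01 ± 0.20 (SE), adjusted p = 0.039), where DESeq2 called 4 and limma-voom 3, and this call was lost without CP line 1, CP line 2, CP line 3, SP line 1 or SP line 2 (adjusted p = 0.17, 0.071, 0.18, 0.17 and 0.089, in that order). Acan, the cartilage proteoglycan aggrecan, was at 0.991, 0.501 and 0.675 CPM with CP and 3.96, 4.396 and 4.54 CPM with SP, the only one of 14 chondrocyte genes called lower (log2FC -2.56 ± 0.47 (SE), adjusted p = 0.03), and this call was lost without CP line 2, CP line 3, SP line 1, SP line 2 or SP line 3 (adjusted p = 0.12, 0.13, 0.17, 0.15 and 0.085, in that order). The chondrocyte list as a whole had a positive median of 0.35.

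Lyz2, the lysozyme of macrophages, was at 16.2, 7.41 and 10.02 CPM with CP and 3.71, 2.71 and 0.966 CPM with SP and was called higher with CP (log2FC 2.21 ± 0.38 (SE), adjusted p = 0.02). It was the only one of 12 macrophage genes that edgeR called, the call was lost without CP line 1, CP line 2, CP line 3, SP line 1 or SP line 3 (adjusted p = 0.073, 0.064, 0.097, 0.13 and 0.051, in that order), and the summed level of the list was 23 to 40.6 CPM with CP and 21.4 to 23.5 CPM with SP, with overlapping ranges. Of 13 genes encoded by the mitochondrial genome, all had a negative log2FC (median -0.30), with 0 called by edgeR or limma-voom and 1 by DESeq2. An unadjusted p under 0.05 was found for 6, against 2081 of the 18460 genes tested. The mitochondrial share of counts in lines 1 to 3 was 3.51, 2.52 and 3.64% with CP and 5.06, 3.001 and 3.53% with SP. It was thus higher with SP in lines 1 and 2, most of all in line 1, and slightly higher with CP in line 3.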
